A study of Mus musculus with 2 samples.

Results

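The 42 genes described here encode proteins that copy DNA or that control when copying starts. They were taken by name from the 32285 genes of the matrices, and all 42 names were found in both libraries. They fall into licensing (10 genes), helicase activation (5 genes), nucleotide supply (5 genes), the replication fork (15 genes) and S phase control (7 genes). Their transcripts were counted in THY‐1+ germ cells, which are cultures of mouse spermatogonia enriched for spermatogonial stem cells. The cells had 48 h with 20 ng/ml FGF9 (FGF9‐treated, 1 library) or with 0 ng FGF, as the label reads (control, 1 library). The control label does not name which FGF is meant. Both cultures came from male C57 LacZ pups, grew on STO feeders, a mouse fibroblast line, and pooled cells derived from 3 mice. GDNF, GFRA1 and FGF2 were in the medium before the experiment, and the study describes a switch at hour 0 to medium with FGF9 or with albumin. The study describes the control as grown without growth factors for these 48 h, and the labels alone do not settle whether the earlier factors stayed in either culture. A characteristic gives passages 9 to 12 for both cultures, but the source name of the FGF9‐treated sample runs to 13 and the methods name passage 12. In bulk sums such as those below, fewer cells that express a gene and less RNA per cell cannot be told apart, and the per-cell counts further on address this.

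DNA is copied in ordered steps. The origin recognition complex, with CDC6 and CDT1, loads the MCM2 to MCM7 ring onto DNA in G1, and CDC45, the GINS complex and MCM10 turn the loaded rings into working helicases when S phase begins. Ribonucleotide reductase and the thymidylate enzymes then supply deoxynucleotides to polymerases held on DNA by the PCNA clamp. Many of these genes are transcribed from G1 into S phase under E2F transcription factors, so that their RNA is known to mark cells that are about to divide. In the testis, spermatogonia are the germ cells that divide by mitosis.

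Cells were kept with at least 2000 genes detected, at most 20% mitochondrial UMIs (unique molecular identifiers, 1 for each captured RNA molecule) and fewer than 40 UMIs of Vim and S100a6 together, a limit that takes out feeder cells. This left 4537 of 5959 FGF9‐treated barcodes (median 13067 UMIs) and 4157 of 5312 control barcodes (median 14824 UMIs). The kept cells held 67068085 UMIs in FGF9‐treated and 67689739 UMIs in control cells. The germ cell label held against its markers: the summed level of 8 germ cell genes, Dazl and Ddx4 among them, was 2974 CPM (UMIs of a gene per 1000000 gene UMIs of the cells) in FGF9‐treated and 2947 CPM in control cells. In the 63 and 31 feeder cells left out it was 182 and 540 CPM. The summed level of 9 feeder markers was 193 CPM in FGF9‐treated and 136 CPM in control cells, against 18843 and 13838 CPM in the feeder cells. Vim and S100a6, which set the filter, are among the 9, so their part of this contrast was fixed by it. In the feeder cells of the FGF9‐treated and control libraries Vim stood at 4730 and 2520 CPM, and S100a6 at 7059 and 5251 CPM. Vim itself stood at 18.5 CPM in FGF9‐treated and 3.65 CPM in control cells, S100a6 at 16.03 and 7.67 CPM, and Lgals1 at 137 and 95.3 CPM. The collagen gene Col1a1 was lower in FGF9‐treated cells, at 12.3 CPM against 22.3 CPM in control cells. The other 5 were under 10 CPM in both, with Col1a2 at 0.462 and 0.325 CPM and Acta2 at 0.149 and 0.163 CPM. The part of feeder RNA in the results was not tested. Among kept cells, 10 barcodes occurred in both libraries.

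Promoters were set beside the counts because E2F sites are the best known shared feature of these genes. RefSeq promoter windows (GRCm38.p6, the mm10 build, 250 bases before to 50 bases after the transcription start) matched 36 of the 42 genes by symbol. The E2F letters TTTCCCGC, TTTCGCGC, TTTGCCGC and TTTGGCGC, searched on both strands, stood in 13 of the 36 (36.1%), against 2.60% of 27025 genes and 5.48% of the 7153 genes that reached 10 CPM in either library. Licensing genes had them in 7 of 9, fork genes in 4 of 13, helicase activation genes in 1 of 3, S phase control genes in 1 of 6 and nucleotide supply genes in 0 of 5. The stretches below are 80 bases each, read 5′ to 3′ on the strand of the gene, and belong to genes the results turn on; capitals mark the E2F letters, or their reverse complement, and overlapping matches run together.
Pclaf, chr9:65890246-65890325 (+): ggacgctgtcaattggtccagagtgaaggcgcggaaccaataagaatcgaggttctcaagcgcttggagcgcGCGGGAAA
Cdc25a, chr9:109875475-109875554 (+): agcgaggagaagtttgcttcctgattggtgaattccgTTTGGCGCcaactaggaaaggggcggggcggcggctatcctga
Orc1, chr4:108579374-108579453 (+): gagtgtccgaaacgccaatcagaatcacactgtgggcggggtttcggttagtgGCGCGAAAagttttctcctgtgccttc
Cdc6, chr11:98907976-98908055 (+): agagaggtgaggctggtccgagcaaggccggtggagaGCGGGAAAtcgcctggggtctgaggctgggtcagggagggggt
Mcm5, chr8:75109321-75109400 (+): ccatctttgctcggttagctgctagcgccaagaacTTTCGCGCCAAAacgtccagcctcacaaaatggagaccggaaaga
Mcm6, chr1:128359741-128359820 (-): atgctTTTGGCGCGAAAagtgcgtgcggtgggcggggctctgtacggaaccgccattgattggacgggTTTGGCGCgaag
Pola1, chrX:93632251-93632330 (-): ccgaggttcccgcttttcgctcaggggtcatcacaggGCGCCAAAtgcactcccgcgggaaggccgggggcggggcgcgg

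Rrm2 and Fbxo5, whose ratios below are among the highest, held no E2F letters in their windows. Both held CCAAT, the letters of the NF-Y factor, searched on both strands and marked in capitals in the next 2 stretches. Of the other genes at least 1.5-fold higher whose windows held no E2F letters, Mcm10, Cdc45, Pcna and Prim1 held CCAAT. Ccne1, E2f1, Tk1 and Tyms held neither. CCAAT stood in 22 of the 36 genes (61.1%), against 41.1% of all genes and 44.4% of genes with at least 10 CPM. The letters TTTGAA of the CHR element, which is known from genes of mitosis, stood in 6 of 36 (16.7%), against 20.2% and 13.9%. Fbxo5 and E2f8 were among these 6. A match describes the letters only, and no binding was measured.
Rrm2, chr12:24708166-24708245 (+): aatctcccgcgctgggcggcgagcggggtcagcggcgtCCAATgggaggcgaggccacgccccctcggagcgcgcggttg
Fbxo5, chr10:5805483-5805562 (-): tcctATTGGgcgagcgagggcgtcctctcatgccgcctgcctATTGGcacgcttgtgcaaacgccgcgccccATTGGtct

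FGF9‐treated cells carried more RNA of every replication step than control cells. The 42 genes together took 0.354% of UMIs in FGF9‐treated cells and 0.263% in control cells, or 3537 and 2628 CPM, a log2 ratio of 0.43 (95% interval 0.42 to 0.44). S phase control genes had the highest summed ratio of the 5 steps and fork genes the lowest. A summed ratio weighs genes by their level. In FGF9‐treated cells Slbp gave 20801 of 30466 S phase control UMIs, and Dut 17906 of 33413 nucleotide supply UMIs. The median gene at 10 CPM or more gave the same highest and lowest step, at 0.97 for S phase control and 0.24 for the fork. Of the 41 genes that reached 10 CPM, 16 were at least 1.5-fold higher in FGF9‐treated cells and 0 were 1.5-fold lower. Among all 8877 genes at that level, 4.49% were 1.5-fold higher and 4.17% were 1.5-fold lower. Of the 16, Cdc6, Rrm2, Pclaf, Pola1, Ccne1, Cdc25a and Fbxo5 reached 10 CPM only in FGF9‐treated cells, so the filter itself favoured these 7. With 10 CPM required in both libraries, a filter added after this was seen, 9 of 34 genes were 1.5-fold higher, beside 2.99% of 8261 genes. The interval lay above 0 for 36 of the 41, below 0 for Rfc5 alone, and held 0 for Pold1, Pole, Rpa2 and Chaf1b. Of all 8877 genes, 2912 had an interval above 0, 3823 below 0 and 2142 one that held 0. An interval clear of 0 was thus common at these counts. The median ratio of the 41 was 0.47, against −0.03 over all genes at that level. With 1 library for each treatment there was no test and no p-value. The intervals reflect counting error and leave out any variation among cultures, and "higher" and "lower" describe these libraries.

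**Figure D1:**
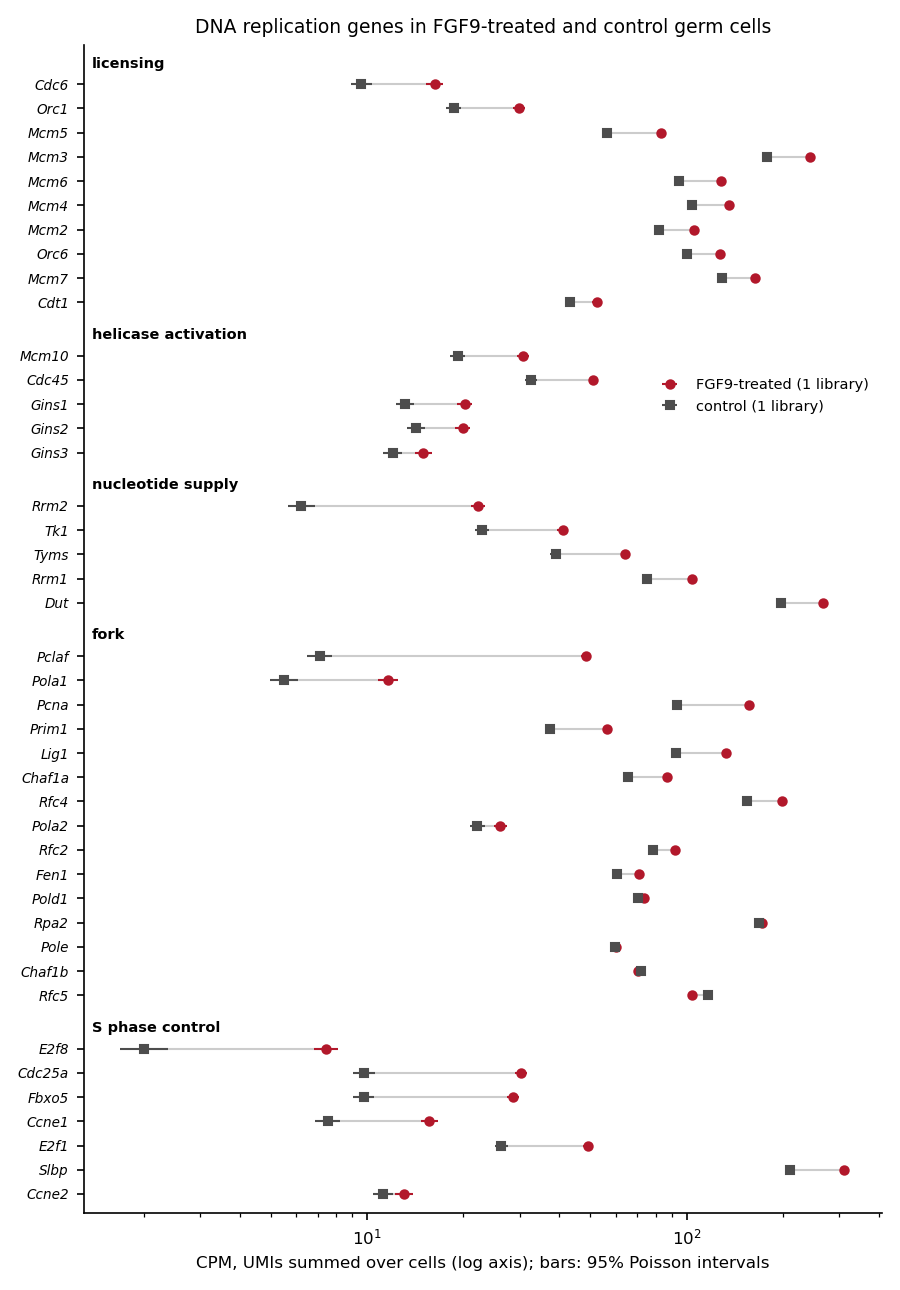
Level of each of the 42 genes in CPM (log axis, UMIs summed over all cells) in FGF9‐treated cells (circles) and control cells (squares), 1 library each, with 95% Poisson intervals, by step and in order of ratio. The symbols lie farthest apart for Pclaf (48.4 and 7.11 CPM) and in the opposite order for Rfc5 (104 and 116 CPM).

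Licensing genes, which load the helicase ring onto origins, summed to 1086 CPM in FGF9‐treated and 816 CPM in control cells (0.41, 0.40 to 0.43). All 10 were higher, 2 of them by at least 1.5-fold. Cdc6, the loading ATPase, stood at 16.3 CPM in FGF9‐treated and 9.60 CPM in control cells (0.76, 0.62 to 0.91). Orc1, the largest subunit of the origin recognition complex, stood at 29.9 and 18.6 CPM in FGF9‐treated and control cells (0.68, 0.58 to 0.78). These loading factors thus differed more than the ring itself. Mcm5, the ring subunit with the highest ratio, stood at 82.9 CPM in FGF9‐treated and 56.4 CPM in control cells (0.56, 0.50 to 0.62), and the other ring subunits, Mcm2, Mcm3, Mcm4, Mcm6 and Mcm7, had ratios between 0.34 and 0.46. The lowest licensing ratio was that of Cdt1, the partner of CDC6 in loading, at 52.3 and 43.2 CPM (0.28, 0.21 to 0.35). Orc6, another origin subunit, had 0.34.

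Helicase activation genes had a summed level of 137 CPM in FGF9‐treated and 91.2 CPM in control cells (0.59, 0.54 to 0.63). All 5 were higher in FGF9‐treated cells and 3 passed 1.5-fold. Mcm10, needed for the assembled helicase to open DNA, stood at 30.7 CPM in FGF9‐treated and 19.2 CPM in control cells (0.67, 0.57 to 0.78). Cdc45, a helicase subunit, stood at 51.1 CPM in FGF9‐treated and 32.5 CPM in control cells (0.65, 0.57 to 0.73). The GINS subunits, which bind beside CDC45, were spread more widely. Gins1 had 20.2 and 13.1 CPM in FGF9‐treated and control cells (0.62, 0.50 to 0.75), Gins2 had a ratio of 0.48, and Gins3 had 15.0 and 12.0 CPM (0.32, 0.18 to 0.45). Gins4, the remaining subunit and not among the 42, was lower in FGF9‐treated cells, at 102 CPM against 117 CPM in control cells (−0.20, −0.25 to −0.15), and was named after its value was seen.

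Nucleotide supply genes summed to 498 CPM in FGF9‐treated and 341 CPM in control cells (0.55, 0.52 to 0.57), and all 5 were higher in FGF9‐treated cells. The small subunit gene of ribonucleotide reductase, Rrm2, which limits deoxynucleotide synthesis in dividing cells, stood at 22.2 CPM in FGF9‐treated and 6.23 CPM in control cells (1.83, 1.68 to 1.99). Its partner Rrm1, the large subunit, had a smaller ratio of 0.47. The subunits of this enzyme therefore differed unequally between the libraries. Tk1, the thymidine kinase of S phase cells, stood at 40.9 CPM in FGF9‐treated and 22.9 CPM in control cells (0.84, 0.75 to 0.93). Tyms, which makes thymidylate from dUMP, stood at 64.0 CPM in FGF9‐treated and 38.9 CPM in control cells (0.72, 0.65 to 0.79). Dut, which clears dUTP, had the lowest ratio of the step at 267 and 198 CPM (0.43, 0.40 to 0.46).

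Fork genes summed to 1361 CPM in FGF9‐treated and 1104 CPM in control cells (0.30, 0.29 to 0.32), and they held both the highest and the lowest ratio of the 42. Pclaf, a small protein that binds PCNA at forks, stood at 48.4 CPM in FGF9‐treated and 7.11 CPM in control cells, 6.81-fold apart (2.77, 2.63 to 2.91). Pola1, the catalytic subunit of polymerase alpha, stood at 11.7 CPM in FGF9‐treated and 5.51 CPM in control cells (1.08, 0.90 to 1.26). Pcna, the sliding clamp, stood at 157 CPM in FGF9‐treated and 93.2 CPM in control cells (0.75, 0.71 to 0.80). Prim1, the primase, was the only other fork gene past 1.5-fold, with a ratio of 0.60. The joining and assembly factors came next, with Lig1, which seals Okazaki fragments, at 0.52, and Chaf1a, a subunit of the histone chaperone CAF-1, at 0.41. Rfc4 of the clamp loader had 0.37, Pola2 of polymerase alpha 0.24, Rfc2 of the clamp loader 0.23, and the flap nuclease gene Fen1 0.22.

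The remaining fork genes hardly differed, although they act in the same machine. Pold1, the lagging strand polymerase, stood at 73.3 CPM in FGF9‐treated and 70.6 CPM in control cells (0.05), and Pole, the leading strand polymerase, at 60.2 CPM in FGF9‐treated and 59.5 CPM in control cells (0.02). Rpa2, which coats single-stranded DNA, stood at 172 CPM in FGF9‐treated and 169 CPM in control cells (0.03). Each of these 3 intervals held 0. Chaf1b, the partner of Chaf1a in CAF-1, stood at 70.2 CPM in FGF9‐treated and 71.7 CPM in control cells (−0.03, −0.09 to 0.03). Rfc5, a clamp loader subunit, was lower in FGF9‐treated cells, at 104 CPM against 116 CPM in control cells (−0.16, −0.21 to −0.12). Subunits of 1 complex thus lay on different sides of 0, as with Rfc4 and Rfc5, or apart, as with Pola1 and Pola2 and with Chaf1a and Chaf1b. Reads of Chaf1b may be shared with Gm49617, which overlaps it on the same strand.

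S phase control genes summed to 454 CPM in FGF9‐treated and 277 CPM in control cells (0.71, 0.69 to 0.74). Cdc25a, the phosphatase that switches on CDK2 at the G1 to S transition, stood at 30.3 CPM in FGF9‐treated and 9.78 CPM in control cells (1.63, 1.51 to 1.76). Fbxo5, an inhibitor of the anaphase-promoting complex that lets S phase proceed, stood at 28.6 CPM in FGF9‐treated and 9.75 CPM in control cells (1.55, 1.43 to 1.68). E2f1, an activator of the genes described here, stood at 49.0 CPM in FGF9‐treated and 26.3 CPM in control cells (0.90, 0.81 to 0.98). E2f8, an E2F family repressor that is itself induced in S phase, was the 1 gene under 10 CPM in both libraries, at 7.44 CPM in FGF9‐treated and 2.01 CPM in control cells (1.89, 1.61 to 2.17). The cyclin E genes, partners of CDK2, differed from each other: Ccne1 stood at 15.6 CPM in FGF9‐treated and 7.53 CPM in control cells (1.05, 0.90 to 1.21). Ccne2 stood at 13.1 CPM in FGF9‐treated and 11.2 CPM in control cells (0.22, 0.08 to 0.36). Slbp, which binds histone mRNA and is itself cell cycle regulated, had 310 CPM in FGF9‐treated and 210.2 CPM in control cells (0.56).

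The next question was whether the ratios persisted in cells in which no RNA of the proliferation marker Mki67 was counted. Mki67 was found in 37.8% of FGF9‐treated and 20.0% of control cells, which left 2822 FGF9‐treated cells (median 11696 UMIs) and 3326 control cells (median 14296.5 UMIs) without it. In these cells the 42 genes together differed far less. All 42 ratios were lower than over all cells, by a median of 0.30, and 10 changed sign. Some, such as Rfc5, Pold1, Pole and Rpa2, ended further from 0. The same count was not made over all genes. The gate takes out cells by a proliferation gene, and a larger part of FGF9‐treated cells. The shift may follow from this, which was not tested. The 42 genes together stood at 2645 CPM in FGF9‐treated and 2446 CPM in control cells (0.11, 0.10 to 0.12). Of the 36 genes with at least 10 CPM, Pclaf, E2f1 and Cdc25a were 1.5-fold higher and 0 were 1.5-fold lower, a share of 3 in 36 beside 3.72% higher and 3.65% lower among all 8854 genes at that level. Pclaf and Cdc25a reached 10 CPM only in FGF9‐treated cells, and with 10 CPM in both libraries E2f1 was the 1 gene of 33, beside 2.37% of 8299 genes. The interval lay above 0 for 22, below 0 for 7 and held 0 for 7. Of all 8854 genes, 2560 had an interval above 0, 3391 below 0 and 2903 one that held 0, so an interval clear of 0 was again common. The median of the 36 was 0.13, against −0.03 over all genes.

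The step sums parted in these cells. Genes of high level again weighed most, and Slbp (0.30) gave 8738 of the 11433 S phase control UMIs in FGF9‐treated cells. Among S phase control genes with at least 10 CPM, 3 intervals lay above 0 and that of Ccne2 lay below. S phase control genes had 319 CPM in FGF9‐treated and 252 CPM in control cells (0.34, 0.30 to 0.38), nucleotide supply genes 375 and 320 CPM (0.23, 0.19 to 0.26) and licensing genes 826 and 749 CPM (0.14, 0.12 to 0.16). Helicase activation genes had 87.3 CPM in FGF9‐treated and 81.0 CPM in control cells (0.11, 0.04 to 0.18). For the sum of the fork genes the interval held 0, at 1038 and 1044 CPM (−0.01, −0.03 to 0.01). Of the 14 fork genes with at least 10 CPM, 5 had intervals above 0 and 6 below, so single genes did differ. Because a cell with more UMIs is more likely to show Mki67, the gate was repeated on cells thinned to 5000 UMIs each, which kept 3353 FGF9‐treated and 3762 control cells. The ratios were then 0.43 for S phase control, 0.29 for nucleotide supply, 0.23 for licensing, 0.23 for helicase activation and 0.05 for the fork. The fork interval then lay above 0 (0.02 to 0.08). In the 105 FGF9‐treated and 39 control cells without any UMI of 6 mitosis genes, the helicase activation ratio was −0.27 (−1.08 to 0.58). The order from S phase control down to the fork was the same under both Mki67 gates, save that helicase activation and licensing lay level after thinning. It did not hold in the few cells without the 6 mitosis genes, where helicase activation lay below the fork. Values of other steps in those cells are given in the closing section.

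**Figure D2:**
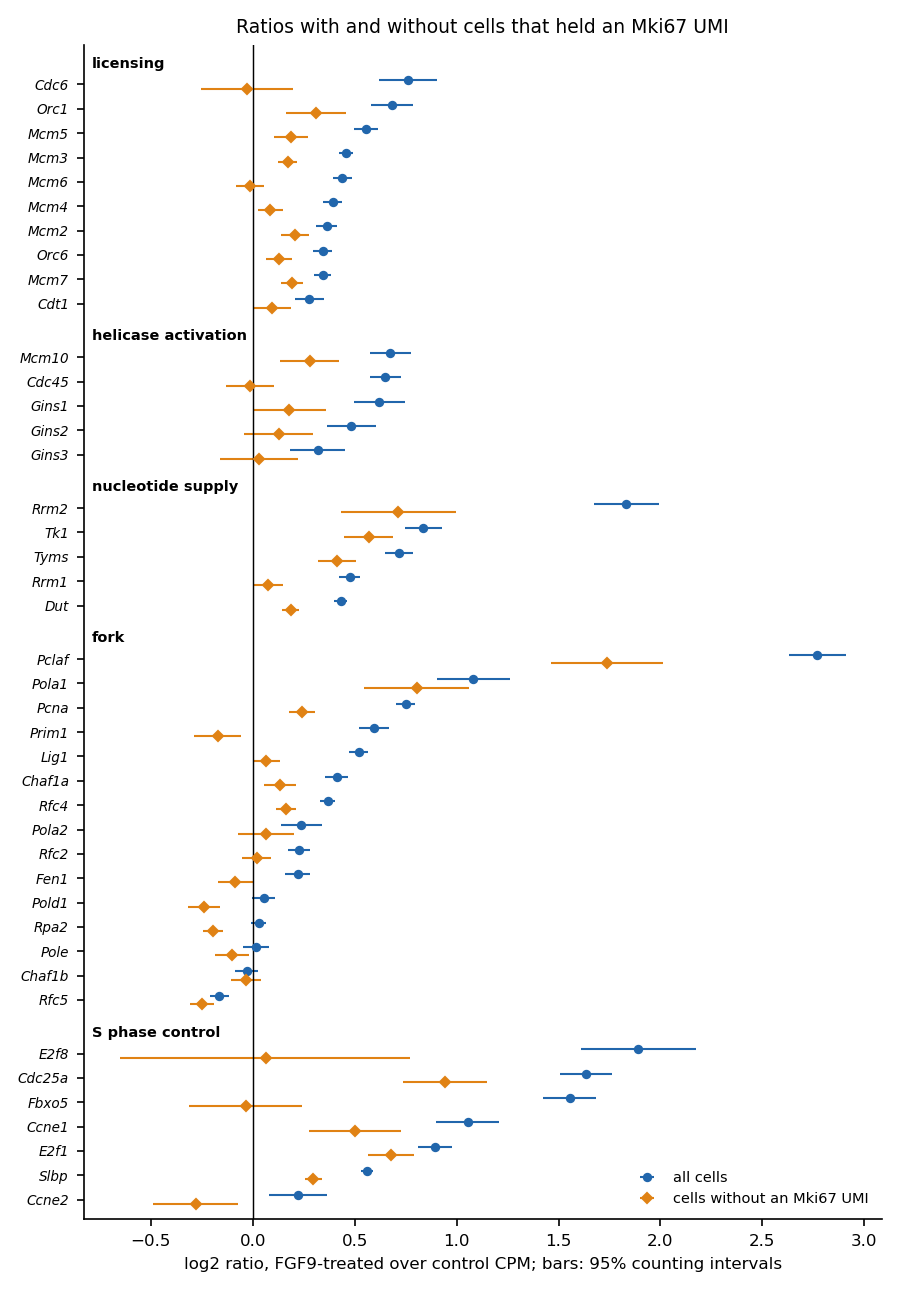
Log2 ratio of FGF9‐treated over control CPM for each of the 42 genes, over all cells (circles) and over cells without an Mki67 UMI (diamonds), with 95% counting intervals and a line at 0. Each diamond lies left of its circle, and Pclaf (2.77 and 1.74) stays farthest to the right in both.

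Pclaf, Cdc25a, E2f1, Rrm2, Pola1 and Tk1 had the highest ratios of the 42 without Mki67. Pclaf stood at 10.3 CPM in FGF9‐treated and 3.10 CPM in control cells (1.74, 1.46 to 2.01), from 371 and 158 UMIs. Cdc25a stood at 12.8 CPM in FGF9‐treated and 6.66 CPM in control cells (0.94, 0.74 to 1.15), and E2f1 at 38.9 CPM in FGF9‐treated and 24.3 CPM in control cells (0.68, 0.57 to 0.79). These are an S phase clamp partner, an S phase entry phosphatase and an E2F factor. Pola1 had 0.80 (0.55 to 1.06), Rrm2 had 0.71 (0.43 to 0.99) and Tk1 had 0.57 (0.45 to 0.69), with Pola1 and Rrm2 under 10 CPM in both libraries. In the few cells without the 6 mitosis genes the Pola1 ratio was −1.08 (−2.88 to 0.76).

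For other genes the difference was gone or the sign turned. Fbxo5, 2.94-fold higher over all cells, stood at 5.10 CPM in FGF9‐treated and 5.22 CPM in control cells without Mki67 (−0.03, −0.31 to 0.24). E2f8 stood at 0.864 CPM in FGF9‐treated and 0.825 CPM in control cells (0.07, −0.65 to 0.77), from 31 and 42 UMIs. Both genes are known to be cell cycle regulated. Among licensing and activation genes, the intervals of Cdc6 (−0.03), Mcm6 (−0.01), Cdc45 (−0.01), Gins2 (0.13) and Gins3 (0.03) held 0, as did those of the fork genes Pola2 (0.07), Rfc2 (0.02) and Chaf1b (−0.03). Lower in FGF9‐treated cells were the cyclin gene Ccne2 at 8.39 CPM against 10.2 CPM in control cells (−0.28, −0.49 to −0.07) and Rfc5 at 99.1 CPM against 118 CPM (−0.25). The others below 0 were Pold1 (−0.24), Rpa2 (−0.19), Prim1 (−0.17), Pole (−0.10) and Fen1 (−0.09), all of the fork. For Prim1 the thinned gate gave 0.17, so its sign without Mki67 rests on the gate.

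Shares of cells with a UMI were compared on cells thinned to 5000 UMIs, 4515 FGF9‐treated and 4141 control cells. More FGF9‐treated cells were positive for most of the 42 genes. The exact 95% intervals of the shares lay apart for 34 genes, 33 of them with the larger share in FGF9‐treated cells. The same count was not made over all genes, so it cannot be called particular to these 42. Rfc5 was the exception, in 38.8% of FGF9‐treated cells (37.3 to 40.2) and 44.0% of control cells (42.4 to 45.5). Intervals overlapped for Gins3, Pola2, Pold1, Pole, Fen1, Rpa2, Chaf1b and Ccne2. Pclaf was found in 14.8% of FGF9‐treated cells (13.8 to 15.9) and 2.17% of control cells (1.75 to 2.66). Rrm2 was found in 8.26% and 2.17%, Cdc25a in 11.6% and 4.25%, Fbxo5 in 9.72% and 3.69%, and Pcna in 46.7% and 34.4% of FGF9‐treated and control cells.

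The feeder cells left out, thinned likewise, serve as cells of another type, though they divide too and are few. Before thinning their median was 26481 UMIs in the FGF9‐treated and 20517 UMIs in the control library. The germ cell share stood above the whole feeder interval for 27 of 42 genes in FGF9‐treated and 16 of 42 in control cells. Pclaf was found in 19.0% of FGF9‐treated feeder cells and 0 of 31 control feeder cells, Rrm2 in 17.5% and 0 of 31, and Pola1 in 20.6% and 3.23%. A count of 0 of 31 allows a share of up to 9.68% at the limit of 3 counts, and the exact 95% interval reaches 11.2%. The shares of Pclaf, Rrm2 and Pola1 therefore did not stand above the feeder interval in either library. Because feeder cells that divide may hold such RNA of their own, the comparison cannot measure RNA free in the droplets, which was not tested. Cdc25a, at 3.17% of FGF9‐treated feeder cells, had a germ cell share above the upper bound of 11.0% in FGF9‐treated cells, but not in control cells, where 12.9% of feeder cells held it.

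A gene's mean can be higher because more cells hold it or because each positive cell holds more. For 36 of the 42 genes the share of positive cells differed more, in size, than the UMIs per positive cell. The median log2 ratio was 0.27 for shares and 0.10 for UMIs per positive cell. Pclaf showed 1.46 UMIs per positive FGF9‐treated cell and 1.13 per positive control cell, a log2 difference of 0.36, the largest with that of Fbxo5 (0.36). In Mcm3, Dut and Slbp, which most cells held, the UMIs per positive cell carried the larger part (0.27, 0.24 and 0.34). At this depth most positive cells hold 1 UMI of a low gene, which keeps the second measure near 0.

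**Figure D3:**
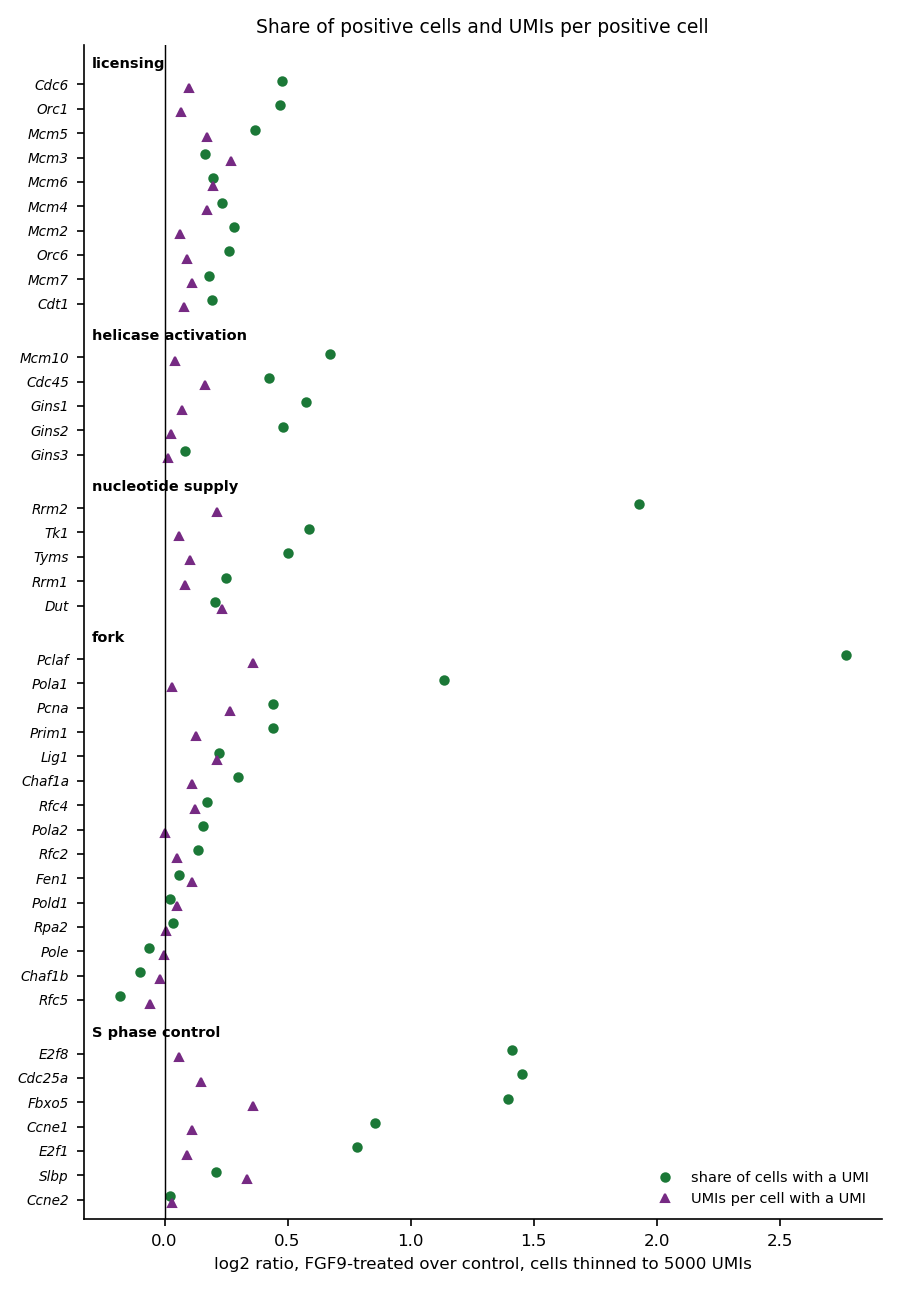
Log2 ratio of FGF9‐treated over control cells for the share of cells with a UMI (circles) and for the UMIs per positive cell (triangles), for each of the 42 genes on cells thinned to 5000 UMIs. Circles run up to 2.77 for Pclaf, while triangles stay at or under 0.36.

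Summed within each thinned cell, the 42 genes showed a long upper tail in FGF9‐treated cells. A cell held 16.7 such UMIs of 5000 on average in FGF9‐treated and 12.8 in control cells. The medians lay close, at 14 and 12, as did percentile 25 at 11 and 10, but percentile 95 was 38 in FGF9‐treated and 21 in control cells. At least 10 UMIs of the 42 genes were found in 82.1% of FGF9‐treated cells (81.0 to 83.2) and 75.5% of control cells (74.2 to 76.8). At least 25, a limit chosen after seeing the data, were found in 685 of 4515 FGF9‐treated cells (15.2%, 14.1 to 16.3) and in 109 of 4141 control cells (2.63%, 2.17 to 3.17). Such a limit cuts a range and not a cell type, and 263 FGF9‐treated and 74 control cells lay within 2 UMIs of it. In cells without Mki67 the shares past 25 were 5.93% in FGF9‐treated and 1.14% in control cells, and in cells with it 41.8% and 17.4%.

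**Figure D4:**
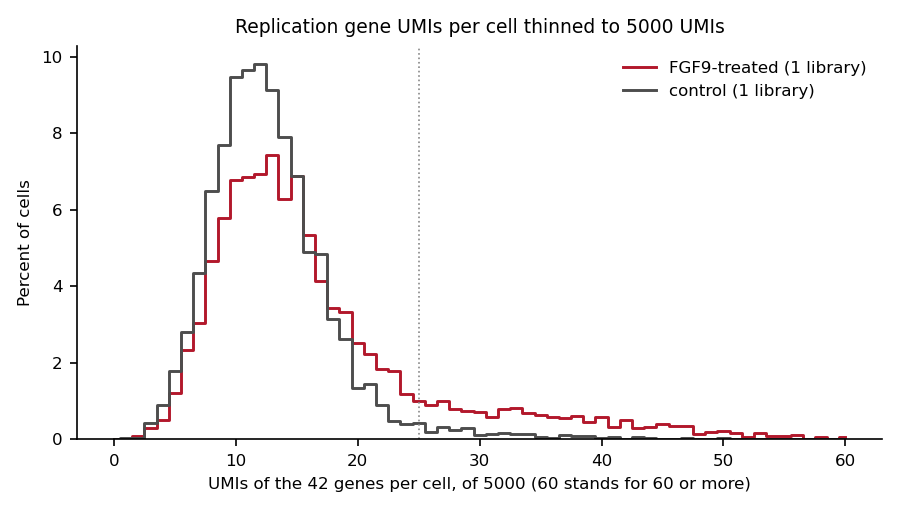
Percent of cells by the number of UMIs of the 42 genes, in FGF9‐treated and control cells (1 library each) thinned to 5000 UMIs, with a dotted line at 25. The bulk of both curves overlaps near 12 to 14 UMIs, and the FGF9‐treated curve lies above control to the right of the line, with 15.2% against 2.63% of cells.

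To see which genes set the tail apart, each gene was read in cells that held at least 25 UMIs of the other 41. Cells past the limit held more of nearly every gene than the remaining cells, with a median log2 difference of 1.35 in FGF9‐treated and 1.27 in control cells. The steepest in control cells were E2f8 (3.61 and 4.51 in FGF9‐treated and control cells), Pclaf (3.30 and 4.38), Rrm2 (3.20 and 3.05), Fbxo5 (3.03 and 2.66) and Cdc25a (2.43 and 3.04). In FGF9‐treated cells Ccne1 (2.56) and Cdc6 (2.45) also lay above Cdc25a. Rfc5 (0.63 and −0.03), Pole (0.77 and 0.21) and Chaf1b (0.35 and 0.26) had the 3 smallest differences in both libraries.

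Differences between the libraries were seen on both sides of the limit. A fixed limit does not match the libraries on either side, since counts reached higher in FGF9‐treated cells (percentile 95 at 38 against 21). Whether the differences follow from this was not tested, and no count over all genes was made. Among cells under the limit, 24 of 42 intervals lay above 0, 5 lay below and 13 held 0, with a median of 0.18. Among cells past it, where control has between 83 and 109 cells, 13 lay above 0, 0 lay below and 29 held 0, with a median of 0.31. Pclaf stood at 0.0931 UMIs per cell in FGF9‐treated and 0.0164 in control cells under the limit (2.51, 2.13 to 2.91), and at 0.919 and 0.340 past it (1.44, 0.95 to 1.96). Rrm2 had 1.23 under the limit and 1.39 past it, Fbxo5 0.90 and 1.27, and E2f1 0.67 and 0.84, each with an interval above 0. Cdc25a had 1.13 (0.84 to 1.42) under the limit and 0.51 (−0.01 to 1.07) past it. Rfc5 (−0.35), Ccne2 (−0.44), Pole (−0.20), Chaf1b (−0.17) and Rpa2 (−0.12) were lower in FGF9‐treated cells under the limit.

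Cells were also set apart by how many Mki67 UMIs they held after thinning. Of FGF9‐treated cells, 74.3% held 0, 11.6% held 1 and 14.2% held 2 or more, against 90.8%, 6.09% and 3.07% of control cells. The 42 genes rose with this class in both libraries. They summed to 14.1 UMIs per FGF9‐treated cell and 12.4 per control cell at 0 (log2 ratio 0.19), 21.8 and 15.3 at 1 (0.51), and 26.6 and 20.6 at 2 or more (0.37). The ratio lay above 0 in each class for each of the 5 steps, from 0.05 for the fork at 0 to 0.95 for helicase activation at 1. S phase control genes had ratios of 0.43, 0.70 and 0.64 in the classes 0, 1 and 2 or more. Within a class the libraries may still differ in where in the cycle their cells lie, and this was not tested.

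**Figure D5:**
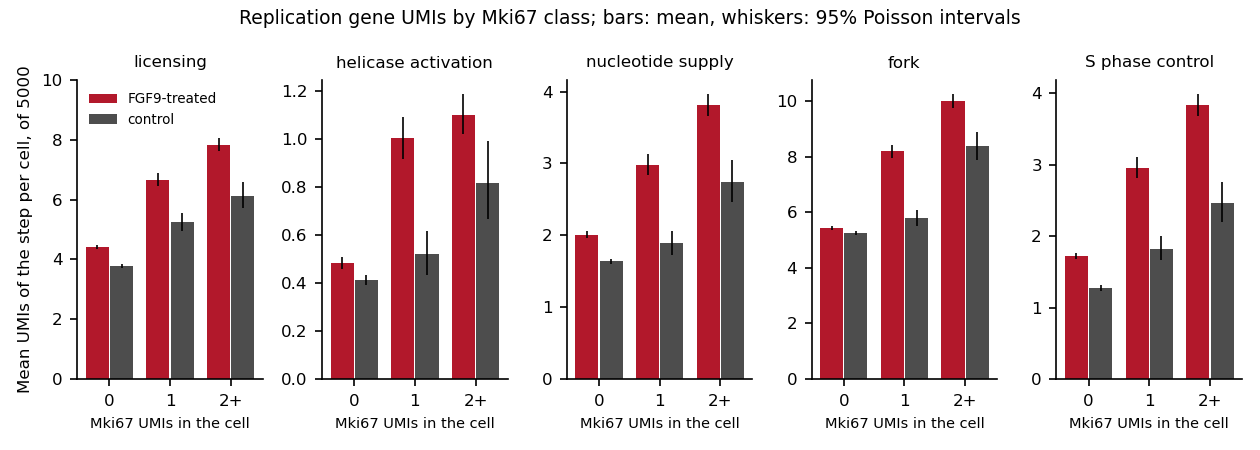
Mean UMIs per cell of each step (of 5000) by the number of Mki67 UMIs in the cell, FGF9‐treated bars left of control bars, with 95% Poisson intervals; each panel has its own axis from 0. Bars grow from class 0 to class 2 or more, and FGF9‐treated bars are the taller ones in each class.

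Other genes of the same machinery were read from lists with the same limits. Of 12 other licensing and initiation genes with at least 10 CPM, 0 passed 1.5-fold in either direction (median 0.11). Of 25 other fork and chromatin genes 4 were 1.5-fold higher (median 0.24), of 11 other nucleotide genes 1 (0.06) and of 10 E2F and retinoblastoma factors 1 (0.09), and 0 of these lists were 1.5-fold lower. All 15 mitosis genes had intervals above 0 over all cells, and 7 passed 1.5-fold (median 0.58). In cells without Mki67, 10 of 13 mitosis genes had intervals below 0 (median −0.18). In the same cells 22 of 36 replication genes had intervals above 0 (median 0.13). Among all 8854 genes at that level, 3391 had intervals below 0 and 2560 above 0. Because the gate takes out cells by a proliferation gene, this contrast may follow from the gate, which was not tested. Pold4, the small subunit of polymerase delta, had the highest ratio of these lists among genes with at least 10 CPM, at 12.2 CPM in FGF9‐treated and 1.74 CPM in control cells (2.81, 2.53 to 3.10), and it kept 2.77 without Mki67. With the same limit Mki67 followed at 156 and 41.4 CPM (1.92), then the S and G2 cyclin gene Ccna2 at 104 and 46.9 CPM (1.14). At the low end stood the E2F partner Tfdp2, at 115 CPM in FGF9‐treated and 159 CPM in control cells (−0.47), and the deaminase gene Dctd, at 84.6 CPM in FGF9‐treated and 117 CPM in control cells (−0.46).

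Replication RNA was also higher in the FGF9‐treated library outside the cells described. Barcodes that failed the filter on genes or mitochondrial UMIs held 1585 CPM of the 42 genes in the FGF9‐treated library and 1009 CPM in control (log2 ratio 0.65, 0.59 to 0.71). Feeder cells held 1777 and 1046 CPM (0.76, 0.65 to 0.88), with Mki67 at 113 and 4.33 CPM. Both levels lie below those of germ cells in the same library. How much of the small ratios in cells without Mki67 comes from RNA free in the droplets was not tested.

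In the mm10 annotation the 42 genes lie on 15 chromosomes. Pclaf (ENSMUSG00000040204) is at chr9:65890237-65903266. Reads of Mcm7, Rrm2, Tyms and Slbp may be split with or lost to pseudogenes or gene models whose last 400 bases hold a match of at least 90 bases at 95% identity, and Mcm5 and Pola2 share such stretches with other transcripts. For 16 of the 42, a gene on the opposite strand overlaps.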

How the data were processed

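Single cells were profiled by droplet RNA sequencing with 10x 3' chemistry, 1 library per treatment. Per the labels, the authors deposited UMI counts per gene and barcode made with Cell Ranger on mm10 (the matrix header names software version 3.1.0) and used Seurat 3.1 afterwards; the deposited counts precede their cell filter. The KIT antibody tag was left out of totals. UMIs were summed over cells and divided by the cells' total to give CPM. Each log2 ratio sets the FGF9‐treated CPM over that of control, with a 95% interval from the exact conditional binomial, and levels have exact Poisson and shares exact binomial (Clopper-Pearson) intervals, tested on simulated data. Genes were called at 1.5-fold with at least 10 CPM in a library. Thinning drew 5000 UMIs from each cell and left out 22 FGF9‐treated and 16 control cells. No doublet caller was run. An alternative left out 123 FGF9‐treated and 76 control barcodes over 2.5 times the median UMIs. Members, lists and limits were chosen with earlier results of these data known. Named in full were the 3 highest and the lowest ratio of each step, genes under 10 CPM in both libraries, genes whose sign turned or interval held 0 without Mki67, and the 3 highest and 2 lowest of the other replication, E2F and mitosis genes; other names were added after their values were seen. Coordinates came from GENCODE M21, promoters from RefSeq GRCm38.p6. Computation used scipy 1.17.1 and numpy 2.4.6 under Python 3.11.15, with scaling factors from edgeR 4.0.16 and DESeq2 1.42.0 under R 4.3.3.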

Additional observations from a re-analysis of the deposited data

How the results depend on the processing

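No paired analysis was possible because each treatment had 1 library, and for the same reason no replicate could be left out. Over all cells every step and the whole set stayed higher in FGF9‐treated cells under each alternative. Values beyond the counting interval were, with feeder cells kept, 0.40 for licensing and 0.42 for all 42 genes; with a limit of 10% mitochondrial UMIs, 0.39, 0.51 for helicase activation and 0.41 for all; with TMM factors, 0.45 for licensing, 0.58 for nucleotide supply, 0.34 for the fork, 0.75 for S phase control and 0.46 for all; with DESeq2 size factors 0.44 for all. The mean of per-cell CPM gave 0.37, 0.53, 0.51, 0.25 and 0.67 for licensing, helicase activation, nucleotide supply, fork and S phase control, and 0.38 for all. At the lower fold limit tried, which lies under the 1.5-fold used elsewhere, 30 genes were higher. No share over all genes was computed at that limit, so this count cannot be called particular to these genes. With at least 10 CPM in both libraries, a filter chosen after seeing the data, 9 genes were higher, and 1 without Mki67.

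Without Mki67, feeder cells gave 0.11 for licensing, −0.034 for the fork and 0.088 for all, and TMM gave 0.13 for all. The thinned gate gave 0.23, 0.23, 0.29, 0.049 and 0.43 in the order above, 0.19 for all, and Prim1 at 0.17. Cells without any UMI of 6 mitosis genes numbered 105 FGF9‐treated and 39 control, and gave 0.19 for licensing, −0.27 for helicase activation, −0.20 for the fork, 0.26 for S phase control and 0.025 for all, with 7 genes higher and 5 lower, and no finite ratio for 6 genes. Signs turned there for Mcm5 (−0.52), Mcm7 (−0.26), Gins1 (−0.46), Pcna (−0.084), Pola1 (−1.08), Rfc4 (−0.37), Lig1 (−0.20) and Rpa2 (0.047). The same gate on thinned cells, chosen after seeing the data, kept 316 and 167 cells and gave 0.059 for licensing, 0.014 for nucleotide supply, −0.12 for the fork, 0.41 for S phase control and 0.019 for all, with 1 gene lower. Signs turned for Mcm5 (−0.22), Rrm1 (−0.32), Pcna (−0.012), Lig1 (−0.025), Chaf1a (−0.16) and Ccne1 (−0.11). With no filter on low values, and also at the lower fold limit, 5 genes were higher. No share over all genes was computed for the gene counts in this paragraph. The cause of these shifts was not tested.

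Shares with at least 10 UMIs of the 42 genes were 84.4% of FGF9‐treated and 79.5% of control cells at the 10% limit and 98.6% and 98.1% at 8000 UMIs. Unthinned, the order turned, at 99.1% and 99.6%, where nearly every cell passes. At 25 UMIs they were 15.2% and 2.63%. Leaving out barcodes of very high UMIs moved none of the step ratios or counts beyond these limits. With 1 library per treatment, differences between the cultures other than FGF9 cannot be told apart from its effect.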
